A study of Danio rerio with 24 samples.

Results

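The response of whole zebrafish embryos to TP-0903 after 4 hours of treatment was described across all genes, with the Hox and retinoid genes set aside except where they bear on another result. The comparison held 8 of the 24 libraries of the series: the 4 labelled 4 hr TP-0903 and the 4 labelled 4 hr DMSO. TP-0903 is an inhibitor of several protein kinases, and DMSO is the solvent in which it was given. All embryos, controls included, were of the strain labelled Tg(snail1b:GFP), which the study writes as Tg(snai1b:GFP). In this strain a snai1b promoter drives GFP. Treatment with either TP-0903 or DMSO began at 13 hours post-fertilization (hpf, 8 somites) and ended at 17 hpf (16 somites), and each library was made from 35 pooled whole embryos. The dose used for the sequenced embryos was not given in the sources used here. The series also holds 8 libraries after 1 hour and 8 after 8 hours of treatment, which are used below only to follow the 4 h genes in time. The 8 h libraries are labelled as collected at 19.5 hpf (21 somites), whereas 8 hours from a start at 13 hpf would end at 21 hpf, and the sources used here do not settle which holds.

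Between 8 and 16 somites the zebrafish embryo is still adding trunk segments. Progenitors in the tailbud, held in an undifferentiated state by FGF and Wnt signals, feed the presomitic mesoderm, which buds off somites at its front end. Over the same hours the hindbrain is divided into rhombomeres by homeodomain and zinc-finger factors, cranial neural crest cells leave the neural tube and become ectomesenchyme in the pharyngeal arches, and the yolk syncytial layer, a nucleated layer around the yolk, makes lipoproteins and plasma proteins for the embryo. Retinoic acid made in the somites opposes FGF in the tailbud and patterns the hindbrain.

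Each library was read as counts per gene. Totals were 5511206 to 9568733 counts in TP-0903-treated embryos and 7465181 to 10582470 counts in DMSO-treated embryos (two-sided exact permutation test, p = 0.171, smallest possible 0.0286). Of 16361 genes in the table, 15953 passed the filter on low counts and were tested. Levels are given as CPM, the counts of a gene scaled to 1000000 counts per library, with library sizes adjusted by edgeR's TMM normalization. Fold changes are given as log2 of TP-0903 over DMSO with their standard error (SE). A gene was called when its Benjamini-Hochberg adjusted p-value, from edgeR's quasi-likelihood test over all genes tested, was under 0.05. Of 28 marker symbols for the main embryonic tissues, 26 were found and every one of these was detected, with the heart markers nkx2.5 and myl7 lowest. Not found were sox17 and ta, the latter another name of ntla, which was found. None of the markers found was called. Since the libraries come from whole embryos, fewer cells of a type and less RNA per cell cannot be told apart in any result below.

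In total 118 genes were called, 79 higher (0.495% of the genes tested) and 39 lower (0.244%) in TP-0903-treated embryos. The Hox clusters held 9 of the higher and 13 of the lower genes, and the retinoid pathway list held 7 higher and 3 lower. The remaining 86 genes, 63 higher and 23 lower, are the subject here. Among them 24 of the higher genes and 10 of the lower genes changed by more than 2-fold, and the median log2 fold changes were 0.82 and -0.81. The median over all tested genes was 0.0011. In every called gene the TP-0903 and DMSO libraries did not overlap, a pattern seen in 6.39% of all tested genes. The rule for naming the highest and lowest genes also required it. Where it is stated for a single called gene below, it describes the values and adds no evidence beyond the call.

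The number of calls moved when single libraries were left out, and each such fit also had fewer samples. A call lost in such a fit can reflect the smaller sample as well as the library left out. Leaving out TP-0903 replicate 1, 2, 3 or 4 gave 41, 79, 77 and 94 higher genes and 22, 30, 32 and 37 lower genes. Leaving out DMSO replicate 1, 2, 3 or 4 gave 45, 48, 40 and 38 higher genes and 21, 26, 20 and 18 lower genes. None of the calls that the naming rule gave changed direction in these fits. Without overlap between the treatments, leaving out 1 library could hardly reverse a call, so this is no test of robustness. The calls for 25 of the 63 higher and 5 of the 23 lower genes held in all 8 of these leave-one-out fits, and for the other genes named the number of such fits in which the call held is given.

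**Figure D1:**
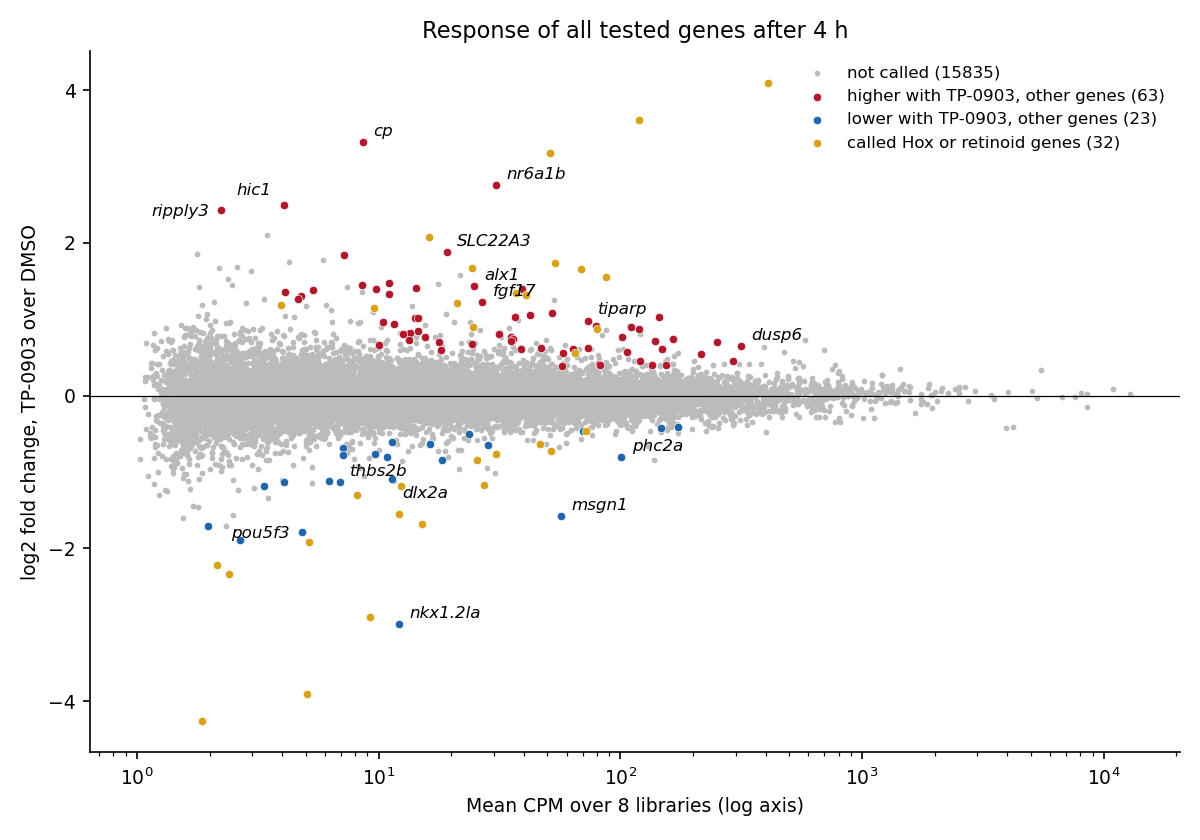
log2 fold change of TP-0903 over DMSO against mean CPM over the 8 libraries (log axis) for each of the 15953 tested genes, with called Hox and retinoid genes in gold and the other 63 higher and 23 lower calls in red and blue. The called genes lie around a dense band of uncalled genes centred on 0.0011, and cp, nr6a1b and nkx1.2la lie farthest from it among the red and blue points.

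The gene with the highest fold change outside the Hox and retinoid genes was cp, which encodes ceruloplasmin, a copper-carrying ferroxidase of the plasma. Its levels were 26.9, 19.1, 10.7 and 6.15 CPM in TP-0903-treated embryos, against 1.39, 1.48, 1.497 and 1.71 CPM in DMSO-treated embryos. All 4 TP-0903 libraries lay above all DMSO libraries, but they spread widely, with replicates 1 and 2 above 3 and 4 (log2 fold change 3.32, SE 0.443, adjusted p = 0.00483). nr6a1b encodes an orphan nuclear receptor whose mouse counterpart represses the pluripotency gene Pou5f1. It was at 70.11, 59.4, 45.4 and 37.8 CPM in TP-0903-treated embryos, against 8.36, 8.72, 6.92 and 7.47 CPM in DMSO-treated embryos (log2 fold change 2.75, SE 0.192, adjusted p = 8.99e-05), so that every treated library held several times the level of any control. SLC22A3, an organic cation transporter, was at 41.6, 24.1, 25.5 and 29.2 CPM in TP-0903-treated embryos, against 9.76, 8.72, 6.74 and 7.58 CPM in DMSO-treated embryos, with replicate 1 highest among the treated libraries and no overlap (log2 fold change 1.87, SE 0.187, adjusted p = 0.000675).

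hic1, a zinc-finger repressor, was at 11.99, 8.66, 4.27 and 2.76 CPM in TP-0903-treated embryos, against 1.39, 1.61, 0.655 and 1.17 CPM in DMSO-treated embryos (log2 fold change 2.49, SE 0.475, adjusted p = 0.03601). ripply3, a co-repressor that in mouse acts on Tbx1 in the pharyngeal region, was at 4.904, 4.99, 2.42 and 2.76 CPM in TP-0903-treated embryos, against 0.697, 1.34, 0.468 and 0.3201 CPM in DMSO-treated embryos (log2 fold change 2.43, SE 0.417, adjusted p = 0.0207). Both genes had low levels in the controls and their highest values in TP-0903 replicates 1 and 2. Their calls held in 2 of 8 and 4 of 8 leave-one-out fits, with adjusted p up to 0.145 and 0.0944. alx1, a homeodomain factor of the frontonasal and periocular crest, was at 29.8, 33.3, 38.6 and 43.03 CPM in TP-0903-treated embryos, against 12.1, 12.1, 15.4 and 14.1 CPM in DMSO-treated embryos, with TP-0903 replicates 3 and 4 the highest here (log2 fold change 1.43, SE 0.135, adjusted p = 0.00059).

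The rest of the 15 highest genes were enzymes, transporters or genes without a descriptive name. ugt5g1, a UDP-glucuronosyltransferase that conjugates small molecules, averaged 16.4 ± 5.39 CPM in TP-0903-treated embryos and 5.84 ± 1.86 CPM in DMSO-treated embryos (SD, n = 4 each; log2 fold change 1.48, SE 0.271, adjusted p = 0.0296), with its call held in 3 of 8 leave-one-out fits (adjusted p up to 0.124). pdzrn3a, of a family of ubiquitin ligases with PDZ domains, averaged 20.8 ± 5.22 CPM in TP-0903-treated embryos and 7.82 ± 0.837 CPM in DMSO-treated embryos (SD, n = 4 each; log2 fold change 1.41, SE 0.182, adjusted p = 0.00397). slc41a2a, of a family of magnesium transporters, averaged 5.92 ± 1.93 CPM in TP-0903-treated embryos and 2.28 ± 0.385 CPM in DMSO-treated embryos (SD, n = 4 each; log2 fold change 1.36, SE 0.259, adjusted p = 0.03601), and its call held in 2 of 8 fits (adjusted p up to 0.148). The treated and control libraries of these 3 genes did not overlap. Among genes known only by an identifier, ENSDARG00000057724 was at 74.3, 66.3, 49.4 and 38.3 CPM in TP-0903-treated embryos, against 20.9, 18.4, 22.9 and 23.8 CPM in DMSO-treated embryos (log2 fold change 1.395, SE 0.187, adjusted p = 0.00488). ENSDARG00000088310 (log2 fold change 1.85, held in 5 of 8 fits, adjusted p up to 0.0594), zgc:194209 (1.45), BX324132.5 (1.402), CABZ01117534.1 (1.38) and CABZ01075125.1 (1.33) complete the group.

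At the other end, the lowest gene outside the Hox clusters was nkx1.2la, a homeobox gene of the caudal progenitor zone. It was at 1.09, 1.91, 3.701 and 3.71 CPM in TP-0903-treated embryos, against 18.7, 17.99, 25.3 and 25.2 CPM in DMSO-treated embryos (log2 fold change -2.995, SE 0.265, adjusted p = 0.000391). pou5f3, the fish relative of the pluripotency factor Oct4, was at 1.998, 1.47, 2.56 and 2.54 CPM in TP-0903-treated embryos, against 6.97, 6.31, 8.33 and 8.43 CPM in DMSO-treated embryos (log2 fold change -1.79, SE 0.207, adjusted p = 0.00171). In both genes the lowest controls were far above the highest treated library. msgn1, a basic helix-loop-helix factor that specifies presomitic mesoderm, was at 16.3, 21.1, 32.03 and 43.6 CPM in TP-0903-treated embryos, against 70.4, 67.9, 104 and 100.3 CPM in DMSO-treated embryos (log2 fold change -1.58, SE 0.258, adjusted p = 0.01598). Its treated libraries ranged widely, with replicate 1 lowest and replicate 4 highest, and its call held in 6 of 8 leave-one-out fits (adjusted p up to 0.0705).

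thbs2b, a thrombospondin of the extracellular matrix, was at 3.81, 4.401, 4.697 and 4.34 CPM in TP-0903-treated embryos, against 11.7, 7.65, 8.98 and 9.604 CPM in DMSO-treated embryos (log2 fold change -1.13, SE 0.167, adjusted p = 0.00851). gdf10a, a ligand of the BMP family, was at 2.91, 2.35, 2.56 and 2.44 CPM in TP-0903-treated embryos, against 4.99, 5.77, 6.36 and 5.12 CPM in DMSO-treated embryos (log2 fold change -1.13, SE 0.178, adjusted p = 0.0131). angpt4, an angiopoietin and thus a ligand of the endothelial receptor Tie2, averaged 2.04 ± 0.551 CPM in TP-0903-treated embryos and 4.65 ± 0.588 CPM in DMSO-treated embryos (SD, n = 4 each; log2 fold change -1.18, SE 0.222, adjusted p = 0.0344). Treated libraries lay under all controls for each, and the call held in all 8 leave-one-out fits for thbs2b, in 7 of 8 for gdf10a (adjusted p up to 0.0637) and in 1 of 8 for angpt4 (up to 0.148).

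dlx2a, a homeodomain factor needed for the ectomesenchyme of the pharyngeal arches, was at 6.18, 7.78, 6.69 and 8.16 CPM in TP-0903-treated embryos, against 18.002, 12.9, 14.8 and 16.2 CPM in DMSO-treated embryos, without overlap and in every leave-one-out fit (log2 fold change -1.09, SE 0.145, adjusted p = 0.00483). phc2a, a Polycomb group protein, was at 63.8, 63.96, 76.6 and 89.1 CPM in TP-0903-treated embryos, against 121, 113, 140.03 and 141 CPM in DMSO-treated embryos (log2 fold change -0.81, SE 0.123, adjusted p = 0.00973), with its call held in 7 of 8 fits (adjusted p up to 0.0512). The zinc-finger factor sp9 (-0.85, SE 0.169, adjusted p = 0.0488), the Iroquois factor irx7 (-0.81, SE 0.152, adjusted p = 0.0349), the TALE homeodomain factor pknox2 (-0.78, SE 0.148, adjusted p = 0.0362), the notochord homeobox gene flh (-0.77, SE 0.129, adjusted p = 0.01801) and the cation exchanger slc24a3 (-1.12, SE 0.2104, adjusted p = 0.0341) all had treated libraries under all controls. Their calls held in 1 of 8, 1 of 8, 0 of 8, 4 of 8 and 2 of 8 leave-one-out fits, with adjusted p up to 0.176, 0.148, 0.154, 0.0879 and 0.136. ENSDARG00000039070 (-1.71, SE 0.328, adjusted p = 0.0365; held in 1 of 8, adjusted p up to 0.148) and CU633857.1 (-1.89, SE 0.243, adjusted p = 0.00396; held in 8 of 8) have no descriptive name.

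**Figure D2:**
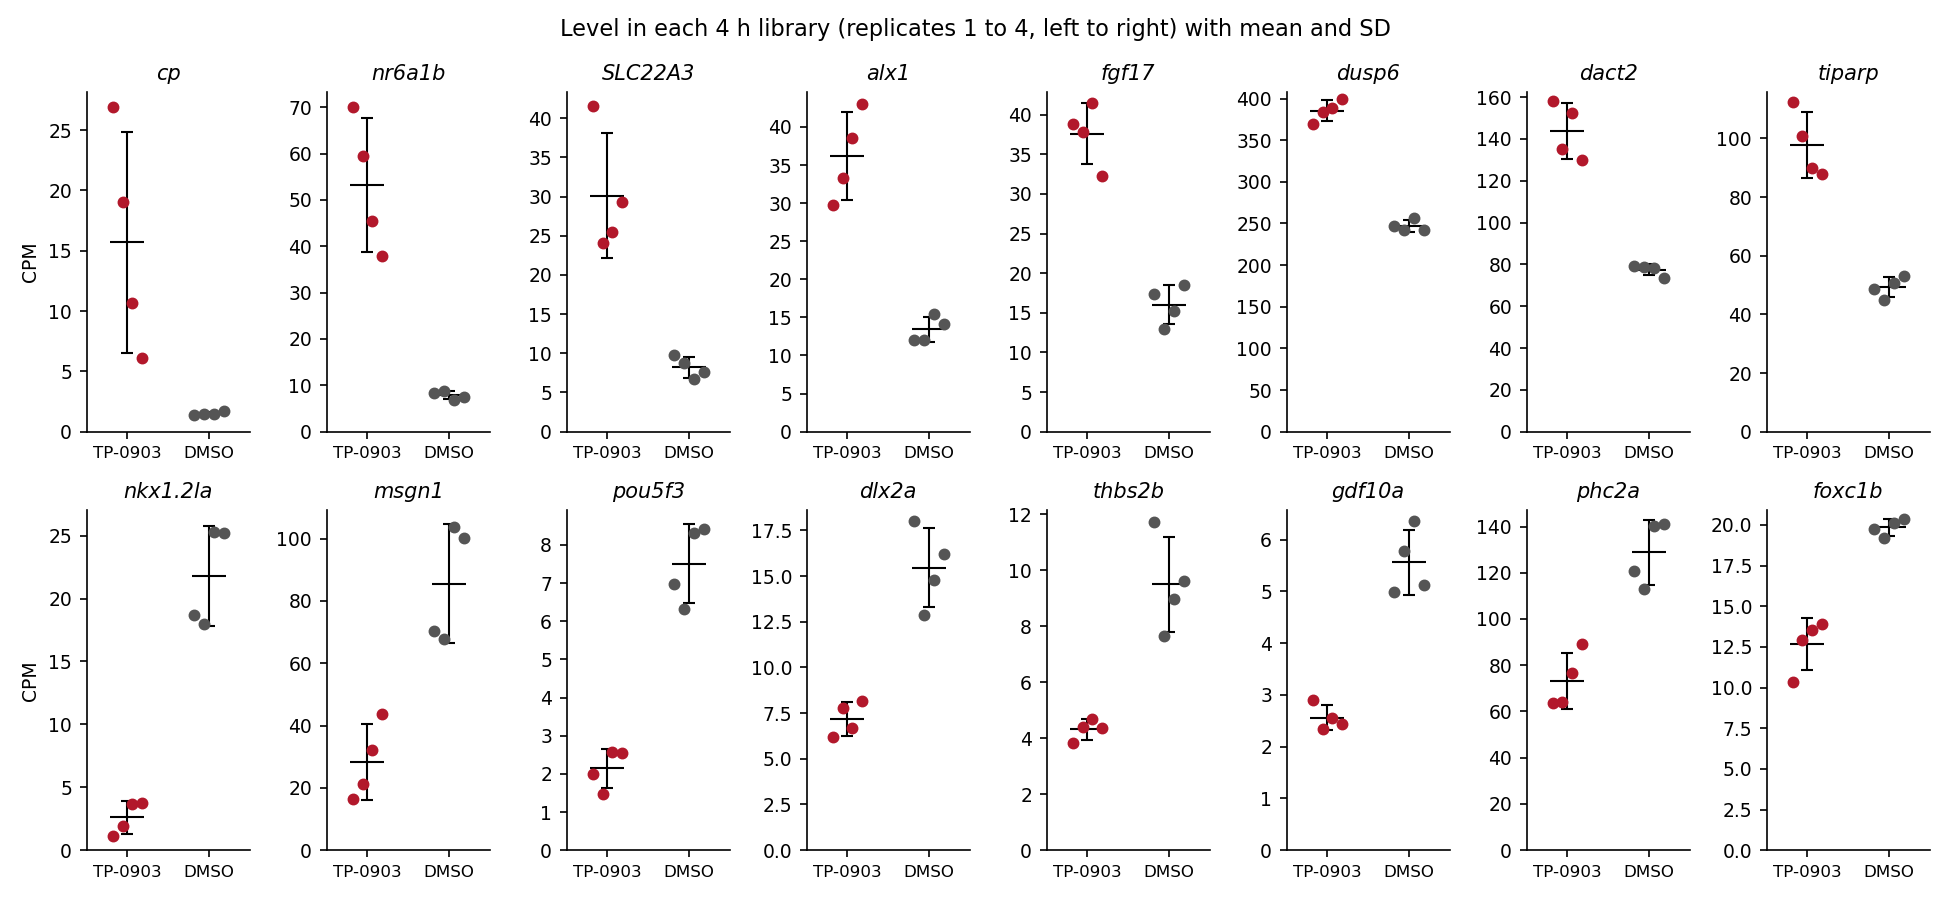
CPM of 8 higher and 8 lower genes in each 4 h library (axes from 0), TP-0903 in red on the left and DMSO in grey on the right of each panel, replicates 1 to 4 from left to right, with the mean and SD as lines. TP-0903 and DMSO points do not overlap in any panel; cp ranges from 6.15 to 26.9 CPM with TP-0903, while dusp6 stays between 369.6 and 399.8 CPM.

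The levels of the called genes spread between the treated libraries. For the 63 higher genes, the median log2 difference of a single TP-0903 library from the DMSO mean was 0.98, 0.898, 0.74 and 0.69 for replicates 1 to 4, and for the 23 lower genes it was -0.88, -0.91, -0.75 and -0.75. Replicates 1 and 2 were both above replicates 3 and 4 in 38 of the higher genes, and the reverse held in 4. For the lower genes replicates 1 and 2 were both under 3 and 4 in 13 of 23, and the reverse held in 1. In DMSO libraries replicates 1 and 2 were both above replicates 3 and 4 in 16 of the higher genes and both under them in 13. For the lower genes they were both under replicates 3 and 4 in 9 and both above them in 4. Against the DMSO library of the same number, the median log2 differences were 0.99, 0.88, 0.77 and 0.67 for the higher and -0.899, -0.82, -0.72 and -0.796 for the lower genes. The numbers separated libraries of both treatments over all genes as well. Replicates 1 and 2 had negative and replicates 3 and 4 positive values on the first principal component within treatments. Whether this order of replicates was more frequent among the called genes than among all tested genes was not tested. Total counts of the TP-0903 libraries were 5511206, 6873812, 6959344 and 9568733, and neither the part of depth nor that of the replicate number in this spread was tested.

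To place the calls in tissues and pathways, 31 lists of genes were examined. They were chosen with earlier results of these data known, so counts of calls by list are a description and no test. The lists held 1215 tested genes outside the Hox and retinoid genes, of which 26 were called higher and 14 lower. Over all tested genes, 0.495% were called higher and 0.244% lower. At least 1 call outside the Hox and retinoid genes was held by 17 lists, and genes such as fgf8a and hnf1ba counted in several of them. DESeq2, the tool with which the study itself tested differential expression, was run here in a later version as an alternative to edgeR. It called 1.31% of the genes it tested. For each list its DESeq2 calls and its genes at an unadjusted p under 0.05 are given. Over all genes tested, 9.43% had such a p, and 5.2% were higher and 4.24% lower with it. The median log2 fold change over all listed genes was 0.013.

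The tailbud list had the most negative median. Of 25 tested members 3 fell (nkx1.2la, pou5f3 and flh) and 3 rose (wnt11, wnt11r and fgf8a). A negative log2 fold change was found in 19 (median -0.298), with 3 higher and 12 lower at an unadjusted p under 0.05. DESeq2 called 3 higher and 5 lower. The most abundant members by CPM were not called: sall4, a zinc-finger factor of progenitors, averaged 718 ± 100.1 CPM in TP-0903-treated embryos and 912 ± 63.03 CPM in DMSO-treated embryos (SD, n = 4 each; log2 fold change -0.35, SE 0.108, adjusted p = 0.287), and cdx4, a caudal homeodomain factor, 142 ± 29.1 CPM in TP-0903-treated embryos and 147 ± 23.002 CPM in DMSO-treated embryos (SD, n = 4 each; log2 fold change -0.051, SE 0.151, adjusted p = 0.932). ntla, the fish Brachyury, had a log2 fold change of -0.19 (adjusted p = 0.597). The summed level of the list was 1357 to 1786 CPM in TP-0903-treated embryos and 1737 to 2023 CPM in DMSO-treated embryos, with the lowest sums in TP-0903 replicates 1 and 2.

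Of 35 members of the presomitic mesoderm and somite list, 3 fell and 1 rose (median -0.21). At an unadjusted p under 0.05, 4 were higher and 9 lower, and DESeq2 called 1 higher and 5 lower. The 3 that fell were msgn1, the retinoic acid synthesis gene aldh1a2 and foxc1b, a forkhead factor of paraxial mesoderm that was at 10.4, 12.9, 13.5 and 13.9 CPM in TP-0903-treated embryos, against 19.7, 19.2, 20.1 and 20.4 CPM in DMSO-treated embryos (log2 fold change -0.64, SE 0.112, adjusted p = 0.02303; held in 3 of 8 leave-one-out fits, adjusted p up to 0.104). The member that rose was ripply3, known from the pharynx rather than the somites. The lowest fold change of the list belonged to mespaa, which marks the next segment boundary, with 0.545, 0.734, 0.996 and 1.91 CPM in TP-0903-treated embryos, against 4.99, 1.88, 3.55 and 4.16 CPM in DMSO-treated embryos. The highest treated library just exceeded the lowest control, and mespaa was not called (log2 fold change -1.701, SE 0.391, adjusted p = 0.0999). The Notch modulator lfng and the ephrin efnb2a, the most abundant members by CPM, had log2 fold changes of -0.15 and -0.26 (adjusted p = 0.579 and 0.5696).

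The hindbrain list held the most calls. Of 35 members 6 rose and 2 fell (median 0.17), while 14 were higher and 8 lower at an unadjusted p under 0.05. DESeq2 called 10 higher and 3 lower. Besides nr6a1b, those that rose were 3 Meis genes, which encode TALE homeodomain partners of Hox proteins, the teashirt factor tshz1 and hnf1ba. tshz1 was at 201, 154, 175 and 164 CPM in TP-0903-treated embryos, against 94.4, 110.1, 104 and 112 CPM in DMSO-treated embryos (log2 fold change 0.72, SE 0.0986, adjusted p = 0.00568). meis1 was at 369, 339, 317 and 328 CPM in TP-0903-treated embryos, against 252, 245, 241 and 251 CPM in DMSO-treated embryos (log2 fold change 0.45, SE 0.0771, adjusted p = 0.0207). Both were higher in every treated library, by amounts well under those of nr6a1b. meis2b (0.61, SE 0.0966, adjusted p = 0.0123) and meis2a (0.67, SE 0.112, adjusted p = 0.0175) moved by a like amount, and hnf1ba, a homeodomain factor of the posterior hindbrain and the kidney, averaged 89.3 ± 14.1 CPM in TP-0903-treated embryos and 57.7 ± 3.05 CPM in DMSO-treated embryos (SD, n = 4 each; log2 fold change 0.63, SE 0.1105, adjusted p = 0.0243). The calls of meis1, meis2b, meis2a and hnf1ba held in 3 of 8, 5 of 8, 4 of 8 and 3 of 8 leave-one-out fits (adjusted p up to 0.101, 0.0657, 0.0828 and 0.116). MEIS2 (2 of 2), a Meis entry on no list and outside the naming rule, was also called higher (0.801, SE 0.139, adjusted p = 0.0222). Its call held in 4 of 8 fits (adjusted p up to 0.104). The members that fell were phc2a and irx7. The lowest fold change, that of the segmentation factor mafba with 14.2, 13.3, 26.05 and 22.7 CPM in TP-0903-treated embryos, against 31.5, 32.8, 42.6 and 41.1 CPM in DMSO-treated embryos, missed the threshold (log2 fold change -0.94, SE 0.2003, adjusted p = 0.0664), as did the abundant greb1l (0.598, SE 0.136, adjusted p = 0.0964) and nr2f5 (0.23, SE 0.0785, adjusted p = 0.363).

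In the lists of the other neural tissues there were few calls. Of 40 forebrain, midbrain and isthmus genes 1 rose, the isthmic signal fgf8a, and none fell, although 29 had a negative fold change (median -0.16; 2 higher and 15 lower at an unadjusted p under 0.05, 1 higher and 2 lower called by DESeq2). emx3, a homeodomain factor of the dorsal forebrain, had the lowest, with 6.36, 4.55, 4.697 and 7.21 CPM in TP-0903-treated embryos, against 8.71, 11.1, 9.45 and 11.5 CPM in DMSO-treated embryos (log2 fold change -0.83, SE 0.179, adjusted p = 0.0747). Of 75 neurogenesis genes 1 rose, the zinc-finger factor myt1a (0.399, SE 0.0756, adjusted p = 0.0351; held in 1 of 8 leave-one-out fits, adjusted p up to 0.158), and the median was -0.016 (7 higher and 8 lower at an unadjusted p under 0.05, 1 higher and 2 lower called by DESeq2). The proneural gene atoh1a was lowest, at 0.363, 1.76, 1.28 and 1.48 CPM in TP-0903-treated embryos, against 2.44, 4.43, 3.55 and 4.695 CPM in DMSO-treated embryos (log2 fold change -1.56, SE 0.345, adjusted p = 0.0833). None of 31 eye genes was called (median -0.063; 3 higher and 7 lower at an unadjusted p under 0.05, 1 called lower by DESeq2), with fold changes between -0.96 for six7 and 0.5998 for six6a. None of 35 placode genes was called either (median -0.14; 4 higher and 3 lower at an unadjusted p under 0.05, 2 higher and 1 lower called by DESeq2), with the lens gene pitx3 lowest (-0.63, SE 0.137, adjusted p = 0.0758) and the ionocyte factor foxi3a highest (0.598, SE 0.204, adjusted p = 0.358).

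Of 47 crest specifiers and genes of the epithelial-to-mesenchymal transition, 1 fell and none rose, while 34 had a negative fold change (median -0.102; 3 higher and 11 lower at an unadjusted p under 0.05, 2 called lower by DESeq2). The one that fell was cdh6, a type II cadherin of crest and neural tube, at 126, 119, 128 and 132 CPM in TP-0903-treated embryos, against 176, 172, 169 and 161 CPM in DMSO-treated embryos (log2 fold change -0.42, SE 0.0743, adjusted p = 0.0234; held in 2 of 8 leave-one-out fits, adjusted p up to 0.101). Values for 3 factors that drive this transition were 0.15 for snai1b (SE 0.232, adjusted p = 0.864), -0.088 for twist1a (SE 0.155, adjusted p = 0.878) and -0.25 for zeb1a (SE 0.0941, adjusted p = 0.442). zeb1a was at 45.4, 36.1, 43.6 and 43.98 CPM in TP-0903-treated embryos, against 48.2, 52.6, 47.1 and 52.6 CPM in DMSO-treated embryos, a small difference without overlap, while the libraries of snai1b and twist1a overlapped. The cadherins cdh1 and cdh2, the most abundant members by CPM, had log2 fold changes of 0.13 and -0.14 (adjusted p = 0.746 and 0.743). pax7b had the lowest fold change of the list (-0.63, SE 0.21004, adjusted p = 0.343), and cdh17, which is also a pronephros marker, the highest (0.39, SE 0.263, adjusted p = 0.6596).

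Calls among genes listed for crest derivatives went both ways. Of 32 genes of ectomesenchyme and periocular crest 2 rose (alx1 and hic1) and 2 fell (dlx2a and foxc1b), around a median of -0.13. Here 6 were higher and 6 lower at an unadjusted p under 0.05, and DESeq2 called 2 higher and 2 lower. foxc1b is also on the presomitic mesoderm and somite list. The heparan sulfate proteoglycan sdc4, abundant in this list, had a log2 fold change of -0.052 (adjusted p = 0.8504). None of 10 pigment cell genes was called (median 0.083; 2 higher and 2 lower at an unadjusted p under 0.05, 0 called by DESeq2). The crest factor sox10 was at 54.1, 41.5, 56.6 and 59.8 CPM in TP-0903-treated embryos, against 49.1, 50.7, 56.97 and 55.9 CPM in DMSO-treated embryos, with the controls inside the range of the treated libraries (log2 fold change -0.0039, SE 0.114, adjusted p = 0.994), and the receptor tyrosine kinase kita had a log2 fold change of -0.085 (adjusted p = 0.777). The extremes were mlpha (0.66, SE 0.287, adjusted p = 0.509) and trpm1b (-0.54, SE 0.236, adjusted p = 0.508).

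Among mesodermal and endodermal organs, the heart list had 1 member that rose (fgf8a) and 2 that fell of 30 (median 0.03). In it 2 were higher and 6 lower at an unadjusted p under 0.05, and DESeq2 called 1 higher and 4 lower. tbx20, a T-box factor of the heart, was at 19.98, 18.8, 26.9 and 22.996 CPM in TP-0903-treated embryos, against 32.3, 39.5, 33.1 and 34.04 CPM in DMSO-treated embryos (log2 fold change -0.64, SE 0.123, adjusted p = 0.0362). tbx1, a T-box factor of pharyngeal endoderm and mesoderm that is also on the endoderm list, was at 10.2, 8.36, 9.11 and 8.58 CPM in TP-0903-treated embryos, against 14.5, 13.8, 13.8 and 12.9 CPM in DMSO-treated embryos (log2 fold change -0.61, SE 0.115, adjusted p = 0.0345). Neither overlapped, but the calls held in 1 of 8 and 0 of 8 leave-one-out fits (adjusted p up to 0.158 and 0.123). The cardiac factors nkx2.7 (-0.81, SE 0.168, adjusted p = 0.0574) and gata6 (0.64, SE 0.215, adjusted p = 0.341) had the lowest and highest fold changes in this list and were not called. hnf1ba was the only call among 29 pronephros genes (median 0.197), with 4 higher and 3 lower at an unadjusted p under 0.05. DESeq2 called 2 higher and 1 lower there. Among 32 endoderm and pancreas genes hnf1ba and tbx1 were the only calls (median 0.063). In that list 6 were higher and 2 lower at an unadjusted p under 0.05, and DESeq2 called 1 higher and 1 lower.

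Of 43 notochord, floor plate and hedgehog genes 2 fell and none rose (median -0.09; 1 higher and 6 lower at an unadjusted p under 0.05, 2 called lower by DESeq2). Besides flh this was sulf1, a sulfatase that edits heparan sulfate, at 145, 138, 149 and 161 CPM in TP-0903-treated embryos, against 195, 198, 199.5 and 199 CPM in DMSO-treated embryos (log2 fold change -0.42, SE 0.0758, adjusted p = 0.0286; held in 2 of 8 leave-one-out fits, adjusted p up to 0.124). The difference was small but every treated library lay below every control. The structural gene col2a1a (-0.296, SE 0.145, adjusted p = 0.572) was not called, and the ligand ihha was highest (0.59, SE 0.277, adjusted p = 0.552).

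No muscle, blood or endothelial gene was called. The 74 muscle genes had a median of 0.15 (6 higher and 1 lower at an unadjusted p under 0.05, 0 called by DESeq2), and the giant sarcomere genes ttna and ttnb, the most abundant by CPM, had log2 fold changes of -0.41 and -0.43 (adjusted p = 0.635 and 0.655). The extremes were the small heat shock gene hspb11 (0.78) and nexn (-0.43). The 32 blood genes had a median of 0.051 (2 higher and 2 lower at an unadjusted p under 0.05, 1 called lower by DESeq2), with the erythroid carbonic anhydrase cahz highest (0.69, SE 0.211, adjusted p = 0.278), the anion exchanger slc4a1a lowest (-0.42, SE 0.583, adjusted p = 0.8398) and the hematopoietic factor tal1 at -0.36 (adjusted p = 0.124). The 40 endothelial genes had a median of -0.00081 (2 higher and 5 lower at an unadjusted p under 0.05, 1 called lower by DESeq2), from the scavenger receptor stab1 (-0.64) to the VEGF receptor flt1 (0.78).

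Of 56 epidermis and hatching gland genes 1 fell and none rose, while 40 had a positive fold change (median 0.14; 6 higher and 1 lower at an unadjusted p under 0.05, 1 higher and 1 lower called by DESeq2). frem2a, a basement membrane protein of the Fras1 complex, was at 55.8, 57.8, 58.6 and 63.9 CPM in TP-0903-treated embryos, against 87.6, 88.7, 73.5 and 76.8 CPM in DMSO-treated embryos (log2 fold change -0.47, SE 0.0893, adjusted p = 0.0365; held in 1 of 8 leave-one-out fits, adjusted p up to 0.164). The keratin krt4, most abundant by CPM, averaged 11315 ± 1742 CPM in TP-0903-treated embryos and 10632 ± 899 CPM in DMSO-treated embryos (SD, n = 4 each; log2 fold change 0.09, SE 0.117, adjusted p = 0.828). The groups overlapped for krt4.

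The yolk syncytial layer and plasma protein list had the most positive median, 0.38, with 36 of 39 members above 0 and 2 called, cp and SLC22A3 (11 higher and 1 lower at an unadjusted p under 0.05, 5 called higher by DESeq2). The lipoprotein gene apobb had 7145, 10687, 3523 and 3199 CPM in TP-0903-treated embryos, against 7113, 4837, 3720.2 and 3839 CPM in DMSO-treated embryos (log2 fold change 0.33, SE 0.3499, adjusted p = 0.778), with TP-0903 replicate 2 highest and TP-0903 replicates 3 and 4 under every control. apoeb had a log2 fold change of 0.35 (adjusted p = 0.604), and apoea, at low levels, the lowest (-1.61, SE 0.4105, adjusted p = 0.153). Over the list the summed levels were 14926, 21839, 8831 and 8180.4 CPM in TP-0903-treated embryos and 14685, 9962, 8965 and 8985 CPM in DMSO-treated embryos, so that TP-0903 replicates 1 and 2 and DMSO replicate 1 stood above the remaining libraries. The part of this library difference in the positive median was not tested.

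**Figure D3:**
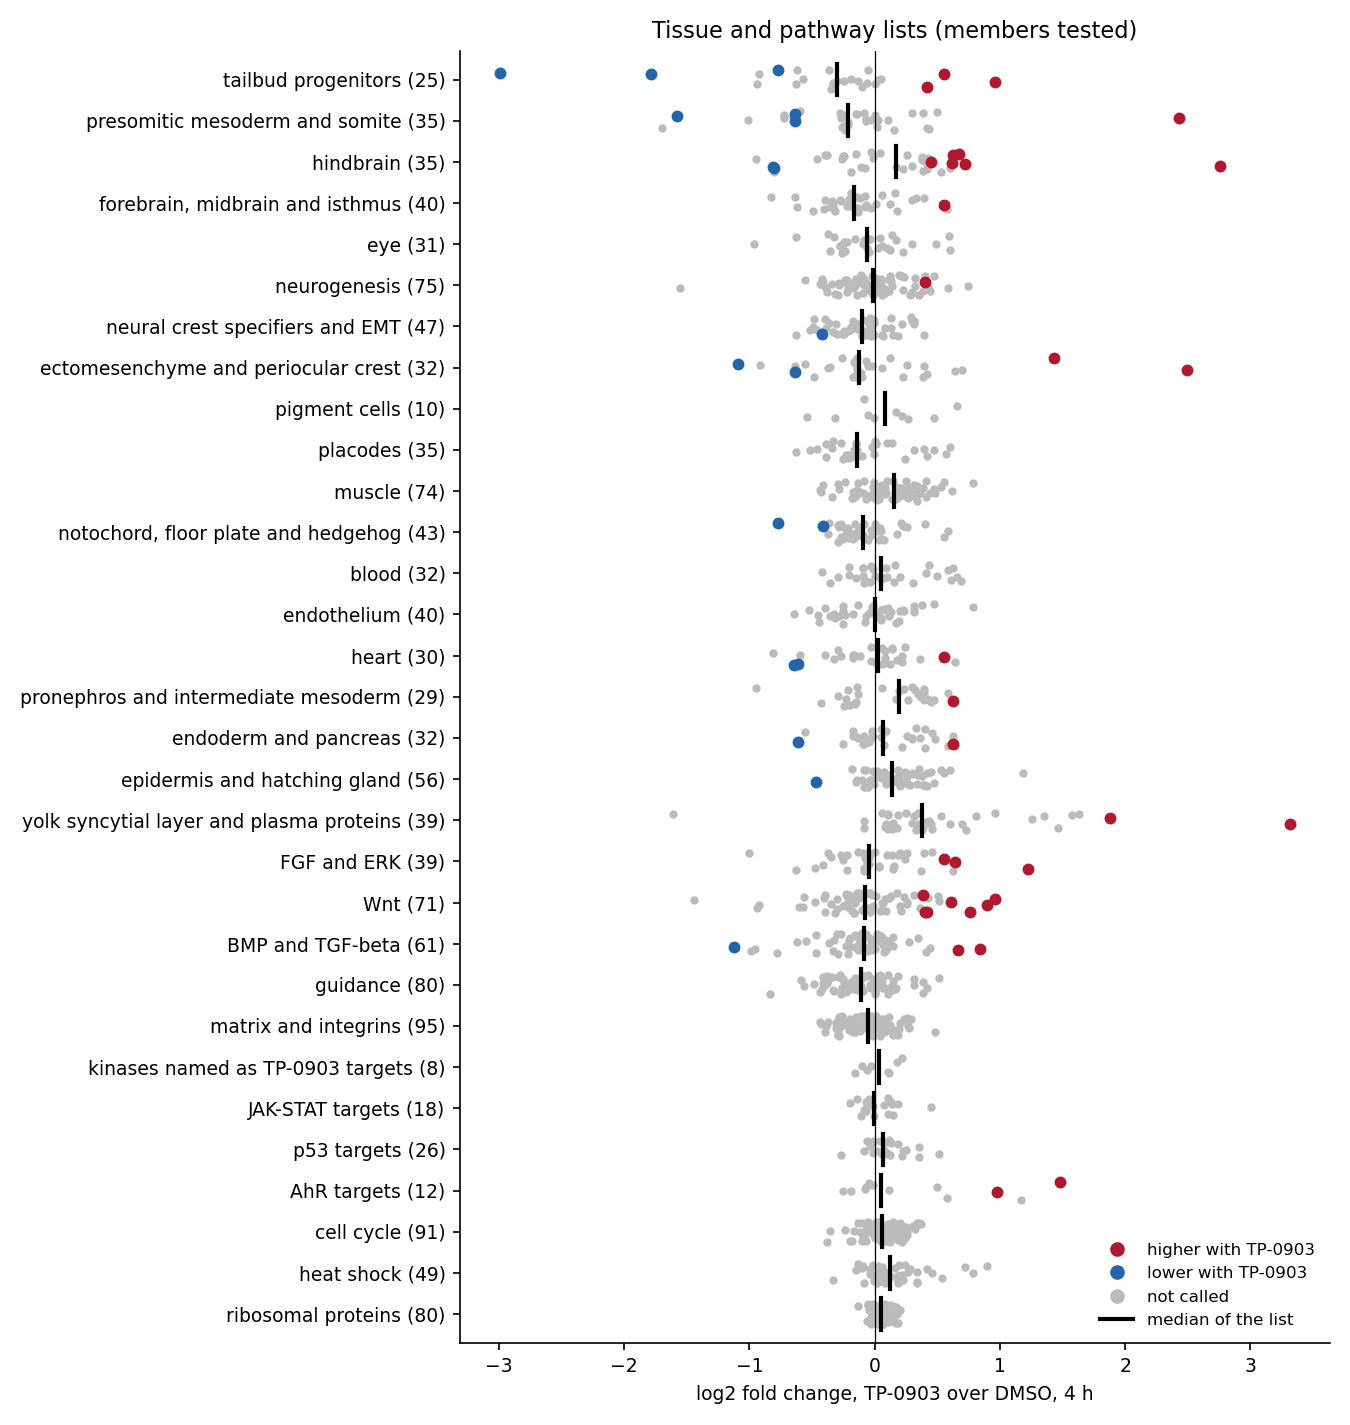
log2 fold change of TP-0903 over DMSO for the members of 31 tissue and pathway lists (1 point per tested gene, number tested in brackets), with called genes in red (higher) and blue (lower), uncalled genes in grey and the median of the list as a bar. Most medians lie near 0; the tailbud list lies lowest at -0.298 and the yolk syncytial layer list highest at 0.38. Uncalled members also lie far from 0 in several lists, such as mespaa at -1.701 and atoh1a at -1.56.

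Ligands and antagonists of the major signalling pathways were called in several lists. In the FGF and ERK list 3 of 39 members rose and none fell (median -0.042; 7 higher and 2 lower at an unadjusted p under 0.05, 4 called higher by DESeq2). fgf17, a ligand of the isthmus and tailbud, was at 38.9, 37.8, 41.4 and 32.3 CPM in TP-0903-treated embryos, against 17.4, 13.02, 15.25 and 18.5 CPM in DMSO-treated embryos (log2 fold change 1.22, SE 0.125, adjusted p = 0.000753). fgf8a, the main ligand of the same sites, was at 66.7, 63.4, 70.6 and 74.3 CPM in TP-0903-treated embryos, against 45.1, 41.5, 50.7 and 49.8 CPM in DMSO-treated embryos (log2 fold change 0.55, SE 0.0921, adjusted p = 0.0172; held in 4 of 8 leave-one-out fits, adjusted p up to 0.0741). Both were higher in every treated library, and here TP-0903 replicates 1 and 2 did not both stand above 3 and 4. dusp6, a phosphatase that inactivates ERK and is itself induced by FGF signalling, was at 369.6, 384, 389 and 399.8 CPM in TP-0903-treated embryos, against 247, 242, 256 and 242 CPM in DMSO-treated embryos (log2 fold change 0.64, SE 0.07203, adjusted p = 0.00147), with little spread within either treatment. The receptor fgfr4 had a log2 fold change of -0.075 (adjusted p = 0.756), and fosb, an immediate early factor, -1.003 (adjusted p = 0.519).

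The Wnt list held the most genes called higher: 7 of 71 members rose and none fell, while the median was -0.076 (13 higher and 13 lower at an unadjusted p under 0.05, 8 higher and 2 lower called by DESeq2). The ligand wnt11, which acts through the non-canonical branch in gastrulation, was at 17.8, 14.96, 12.2 and 10.5 CPM in TP-0903-treated embryos, against 6.27, 6.58, 6.74 and 8.54 CPM in DMSO-treated embryos (log2 fold change 0.96, SE 0.1804, adjusted p = 0.0341), and its relative wnt11r rose less (0.42, SE 0.0764, adjusted p = 0.0286). dact2, which encodes a Dishevelled-binding protein, was at 158, 135, 152 and 130.1 CPM in TP-0903-treated embryos, against 79.2, 78.5, 78.2 and 73.5 CPM in DMSO-treated embryos (log2 fold change 0.895, SE 0.0855, adjusted p = 0.00059), and dact1, of the same family, was at 64.3, 62.9, 66.2 and 66.4 CPM in TP-0903-treated embryos, against 49.2, 49.8, 49.9 and 49.6 CPM in DMSO-treated embryos (log2 fold change 0.39, SE 0.0708, adjusted p = 0.0286). In all of these the treated libraries lay above the controls, by nearly 2-fold for dact2 and by far less for dact1. The secreted antagonist sfrp2 (0.76, SE 0.139, adjusted p = 0.0286), the receptor-like kinase ror1 (0.61, SE 0.114, adjusted p = 0.0341) and the zinc-finger factor sp8a (0.401, SE 0.0717, adjusted p = 0.0256) complete the group. The call held in all 8 leave-one-out fits for dact2, and in 2 of 8, 1 of 8, 1 of 8, 3 of 8, 1 of 8 and 2 of 8 for wnt11, wnt11r, dact1, sfrp2, ror1 and sp8a (adjusted p up to 0.122, 0.119, 0.125, 0.108, 0.135 and 0.119). The effector ctnnb1 (-0.076, SE 0.111, adjusted p = 0.8504) and the receptor fzd7a (0.042, SE 0.0803, adjusted p = 0.891) were not called, and the antagonist frzb had the lowest fold change (-1.44, SE 0.337, adjusted p = 0.106).

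In the BMP and TGF-beta list 2 ligands rose and 1, gdf10a, fell, of 61 members (median -0.089). Of these members 6 were higher and 13 lower at an unadjusted p under 0.05, and DESeq2 called 2 higher and 3 lower. gdf6b, a ligand of the dorsal neural tube, was at 21.3, 20.2, 16.2 and 17.3 CPM in TP-0903-treated embryos, against 10.6, 10.6, 9.17 and 11.4 CPM in DMSO-treated embryos (log2 fold change 0.84, SE 0.126, adjusted p = 0.00933). bmp5 was at 13.8, 12.2, 11.7 and 11.9 CPM in TP-0903-treated embryos, against 7.32, 8.32, 7.67 and 7.79 CPM in DMSO-treated embryos (log2 fold change 0.67, SE 0.118, adjusted p = 0.0252; held in 3 of 8 leave-one-out fits, adjusted p up to 0.104). The direct BMP target id1 had a log2 fold change of 0.102 (adjusted p = 0.716), and the secreted binding protein fstl1b -0.13 (adjusted p = 0.622).

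In the list of aryl hydrocarbon receptor targets, a response to foreign aromatic compounds, 2 of 12 members rose, ugt5g1 and tiparp (median 0.052; 3 higher and 1 lower at an unadjusted p under 0.05, 3 called higher by DESeq2). tiparp, an ADP-ribosyltransferase that feeds back on this receptor, was at 112, 101, 89.8 and 87.9 CPM in TP-0903-treated embryos, against 48.7, 44.96, 50.8 and 53.1 CPM in DMSO-treated embryos, close to 2-fold higher and without overlap (log2 fold change 0.98, SE 0.0982, adjusted p = 0.000675). The receptor's partner arnt2 had a log2 fold change of -0.072 (adjusted p = 0.851), and the conjugating enzyme ugt1a7 was lowest (-0.25, SE 0.345, adjusted p = 0.838).

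Lists tied to the known targets and to general stress held no calls. The 8 tested kinases named as TP-0903 targets had fold changes between -0.16 for tyro3 and 0.22 for aurkb (0 higher and 0 lower at an unadjusted p under 0.05, 0 called by DESeq2). The RNA levels of these genes do not measure the activity of the kinases. The 18 JAK-STAT targets had a median of -0.0084 (0 higher and 0 lower at an unadjusted p under 0.05, 0 called by DESeq2), from socs3a (-0.196) to irf9 (0.45). The 26 p53 targets had a median of 0.07 (1 higher and 1 lower at an unadjusted p under 0.05, 0 called by DESeq2), and ccng1, a direct target, was at 1122, 539, 1407 and 692 CPM in TP-0903-treated embryos, against 743, 903.04, 1077 and 732 CPM in DMSO-treated embryos, with the controls inside the range of the treated libraries (log2 fold change 0.12, SE 0.256, adjusted p = 0.8999). The 91 cell cycle genes had a median of 0.061 (9 higher and 1 lower at an unadjusted p under 0.05, 0 called by DESeq2), with pcna at 0.201 and mki67 at -0.1003.

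Of the 49 heat shock and stress genes 38 had a positive fold change (median 0.12; 12 higher and 0 lower at an unadjusted p under 0.05, 1 called higher by DESeq2). Over all genes tested, 5.2% were higher at such a p. The chaperone hspa8 was at 0.021, hsp90ab1 at -0.037, and the inducible hsp70.3 highest (0.898, SE 0.387, adjusted p = 0.501). The 80 ribosomal protein genes lay within -0.13 to 0.201 (median 0.05; 0 higher and 0 lower at an unadjusted p under 0.05, 0 called by DESeq2). Among 80 genes of axon and cell guidance the median was -0.11 (4 higher and 14 lower at an unadjusted p under 0.05, 1 called lower by DESeq2), from efnb2b (-0.83) to sema3c (0.51). Among 95 genes of matrix and integrins it was -0.05 (2 higher and 6 lower at an unadjusted p under 0.05, 0 called by DESeq2), with fibronectin fn1b at -0.29 (adjusted p = 0.686).

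The 4 h genes were then followed in the libraries of the other treatment times, which share no sample with the 4 h libraries. At 1 h no gene was called by edgeR (0% of 15530 tested; 214 had an unadjusted p under 0.05), and DESeq2 called 0.0814% of its tested genes. Of the 63 higher genes outside the Hox and retinoid genes, 61 were tested at 1 h and 55 were higher there too, with a median log2 fold change of 0.81 at 4 h and 0.33 at 1 h, and 24 had an unadjusted p under 0.05. Of the lower genes 23 were tested and 19 were lower (median -0.17), with 2 under that p. DESeq2 called 6 of the 86 genes at 1 h. Examples of a large early value were cp (1.72), nr6a1b (1.396) and BX324132.5 (1.402) at 1 h, while pdzrn3a (0.46) and dlx2a (-0.066) were at smaller values. The effect at 4 h differed from that at 1 h for 0% of genes by edgeR's interaction test (343 of 16283 under an unadjusted p of 0.05) and for 0.0428% by DESeq2. In both edgeR tests the genes under this unadjusted p were a smaller share than chance alone gives, so the tests were conservative. Replicate numbers were not modelled in them, and the absence of calls does not show an absence of effect.

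At 8 h far more genes were called, 15.4% of those tested higher and 13.5% lower. Counts at 8 h were given for 18984 genes, against 16361 at 1 h and 4 h. Any difference in the handling of the 8 h libraries is therefore not separated from time. This holds for the number of calls and for the tests of 8 h minus 4 h. Of the 63 higher 4 h genes, all tested at 8 h, 36 were called higher again, 3 were called lower and 24 were not called. Their median log2 fold change was 0.42 at 8 h, against 0.82 at 4 h. Of the 19 lower genes tested at 8 h, 11 were called lower again, 2 were called higher and 6 were not called. The 8 h values of genes that kept their call included tshz1 at 1.06 (adjusted p = 3.04e-06), alx1 at 1.003 (adjusted p = 0.000142) and ENSDARG00000057724 at 1.82 (adjusted p = 4.73e-08). irx7 at -1.26 (adjusted p = 3.12e-06) and slc24a3 at -1.46 (adjusted p = 2.67e-05) did so on the lower side.

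The treatment effect at 8 h differed from that at 4 h, by the interaction of treatment and time, in 31 of the 84 genes that could be tested, against 14.2% of all genes in that test. In 24 higher genes the effect at 8 h was the lower one and in 1 it was the higher one. All 6 lower genes that passed had the higher value at 8 h. Because the genes were picked for a low p at 4 h, a smaller value at another time is in part built into the choice. The most negative difference among the genes tested here was that of nr6a1b, at 0.55 after 8 h and 2.75 after 4 h (8 h minus 4 h -2.18, SE 0.217, adjusted p = 5.76e-06).

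The FGF genes were among those whose effect was gone or turned at 8 h. fgf17 was at 0.68, 1.22 and -0.42 after 1, 4 and 8 h (8 h minus 4 h -1.62, SE 0.214, adjusted p = 0.000108). fgf8a was at 0.504, 0.55 and -0.44, and at 8 h it was called lower (adjusted p = 0.00991; 8 h minus 4 h -0.97, SE 0.142, adjusted p = 0.000277). dusp6 was at 0.62, 0.64 and 0.014 (8 h minus 4 h -0.61, SE 0.101, adjusted p = 0.000807). For all 3 the values after 1 h and 4 h were positive and that after 8 h was near or below 0. A like course was found for dact2 (0.69, 0.895 and 0.029; 8 h minus 4 h -0.84, SE 0.1403, adjusted p = 0.000814) and gdf6b (0.33, 0.84 and -0.54; -1.36, SE 0.237, adjusted p = 0.00122).

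Opposite calls at the later time were made for 5 genes. Besides fgf8a these were thbs2b, tbx1 and, outside the rule by which genes are named here and picked after their values were seen, plod2 and pgp. thbs2b was higher at 8 h (0.74) and lower at 4 h (-1.13; 8 h minus 4 h 1.89, SE 0.176, adjusted p = 3.18e-06). tbx1 likewise was at 0.32 at 8 h and -0.61 at 4 h (0.95, SE 0.164, adjusted p = 0.00109). plod2, a lysyl hydroxylase of collagen, had a log2 fold change of -0.47 at 8 h. At 4 h it was at 240.3, 194, 218 and 178 CPM in TP-0903-treated embryos, against 137, 106, 130.1 and 123 CPM in DMSO-treated embryos, without overlap (log2 fold change 0.74, SE 0.112, adjusted p = 0.00973). pgp, a phosphoglycolate phosphatase, had -0.72 at 8 h and 0.77 at 4 h. These 2 calls at 4 h held in 7 of 8 and 7 of 8 leave-one-out fits, with adjusted p up to 0.0539 and 0.0512.

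**Figure D4:**
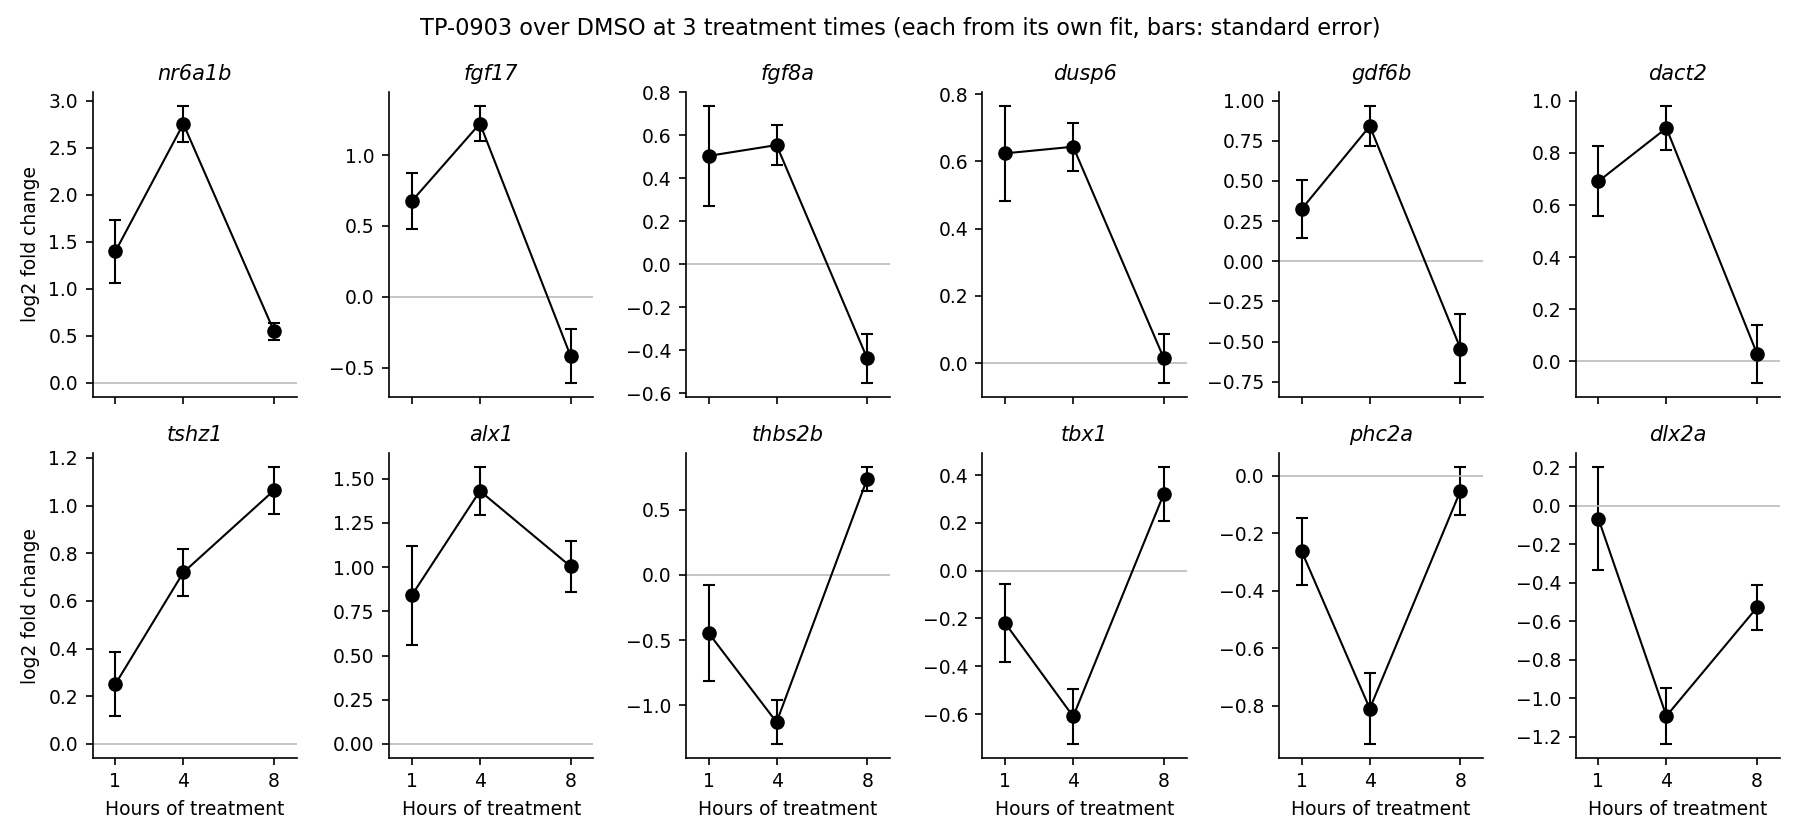
log2 fold change of TP-0903 over DMSO after 1, 4 and 8 hours of treatment for 12 genes, each time from its own fit with 4 libraries per treatment, with standard errors as bars and a grey line at 0 where it is in range (vertical scales differ). nr6a1b peaks at 2.75 after 4 h, fgf17, fgf8a, dusp6, gdf6b and dact2 are near or below 0 after 8 h, tshz1 keeps a high value, and thbs2b and tbx1 lie above 0 after 8 h and below it after 4 h.

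The tailbud genes could be followed only in part. At 8 h 4 of the 23 lower genes were not tested. Of these, msgn1 and nkx1.2la did not pass the filter on low counts. With the Hox and retinoid genes counted in, 12 of the 39 lower genes were not tested. The posterior Hox genes hoxa11a, hoxc11a, hoxc11b, hoxc12a, hoxc12b, hoxd12a, hoxa13b and hoxd13a did not pass this filter either. At 8 h nkx1.2la had 7, 11, 8 and 3 counts in TP-0903-treated embryos and 4, 6, 21 and 3 counts in DMSO-treated embryos, too few to compare. In the DMSO libraries of 4 h nkx1.2la had been at 17.99 to 25.3 CPM, so at 8 h its level was low in both treatments. pou5f3 was still lower at 8 h, at -0.96 (adjusted p = 0.0245), and flh was at -1.43 (adjusted p = 0.00352). Whether the fall of nkx1.2la in both treatments bears on the 8 h values of fgf17, fgf8a, pou5f3 or flh was not tested. The same holds for the low counts of msgn1 and these Hox genes at 8 h.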

How the data were processed

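RNA was made from pools of whole embryos, read here as 35 per library. Libraries were prepared with a stranded total RNA kit after removal of ribosomal RNA and sequenced as single reads. The authors aligned reads with Novoalign to the zv9 genome (version 2.08.03 in their processing notes), removed low-quality and repetitive alignments, and deposited a count of alignments per Ensembl gene with an FPKM value per library, which was not used in any result here. Whether counting used strand was not given in the sources used here, so overlapping and antisense genes may share reads, as may close paralogs. The deposited table also holds the authors' log2 ratios and a score made from adjusted p-values for the same comparison, which were not used.

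Counts were tested with edgeR 4.0.16 in R 4.3.3 (filterByExpr, TMM normalization, quasi-likelihood F test, Benjamini-Hochberg adjustment over all tested genes), in a fit of the 8 libraries of each time. Interactions of treatment and time were fitted over 16 libraries. The SE of a fold change is its size over the square root of F. The script was tested on simulated data. Alternatives used DESeq2 1.42.0 and limma 3.58.1. Totals were compared by exact permutation. The study's methods call the replicates biological; how they were separated is not given in the sources used here, and p-values measure the spread between these libraries.

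Genes named are the 15 highest and 15 lowest by log2 fold change among called genes whose mean reached 1 CPM with TP-0903 or with DMSO and whose libraries did not overlap, Hox and retinoid genes left out; every other called member of a list; from each list the 2 members with the highest mean CPM and those with the highest and lowest log2 fold change; and dlx2a, twist1a, snai1b, zeb1a, cyp26a1 and hoxb1a from among the genes of the study (cyp26a1 and hoxb1a are retinoid and Hox genes, and both were called). A few other genes it examined by in situ hybridization are not reported here. Nor is 1 gene that the rule names in the notochord list. The members and lists were chosen with earlier results of these data known. Symbols come from the deposited table and, where it had none usable, from a table of gene names.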

Additional observations from a re-analysis of the deposited data

Results flagged for a closer look

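Of 240 groups of 4 libraries examined for the named calls and the summed lists, 8 had 1 library apart from its group by a gap, as a share of the group's range, over Dixon's critical value; chance alone gives about 1 in 20 such groups, here 12. slc41a2a in DMSO replicate 4 was 1.71 CPM, against 2.42 to 2.56 CPM in the other 3 DMSO libraries (gap 0.836 of the range). hoxa3a in DMSO replicate 3 was 51.4 CPM, against 57.8 to 58.7 CPM in the other 3 DMSO libraries (gap 0.884 of the range). sfrp2 in DMSO replicate 3 was 9.82 CPM, against 11.9 to 12.3 CPM in the other 3 DMSO libraries (gap 0.853 of the range). wnt11r in TP-0903 replicate 3 was 99.1 CPM, against 91.7 to 92.8 CPM in the other 3 TP-0903 libraries (gap 0.847 of the range). The summed level of the hindbrain list in TP-0903 replicate 2 was 3549 CPM, against 4223 to 4303 CPM in the other 3 TP-0903 libraries (gap 0.894 of the range). The summed level of the BMP and TGF-beta list in DMSO replicate 2 was 3409 CPM, against 3537 to 3549.9 CPM in the other 3 DMSO libraries (gap 0.909 of the range). The summed level of the guidance list in TP-0903 replicate 2 was 3965 CPM, against 4938 to 4967 CPM in the other 3 TP-0903 libraries (gap 0.971 of the range). The summed level of the heat shock list in TP-0903 replicate 2 was 23304 CPM, against 21359.8 to 21610.3 CPM in the other 3 TP-0903 libraries (gap 0.871 of the range).

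By the interaction of treatment and time, the log2 fold change at 8 h was apart from that at 4 h in 21 of the 55 named calls outside the Hox and retinoid genes (edgeR, adjusted p under 0.05). The difference, 8 h minus 4 h, was negative for cp (-1.67), nr6a1b (-2.18), SLC22A3 (-0.97), BX324132.5 (-0.85), fgf17 (-1.62), tiparp (-0.54), wnt11 (-0.75), dact2 (-0.84), gdf6b (-1.36), sfrp2 (-0.91), dusp6 (-0.61), hnf1ba (-0.66), ror1 (-0.51), fgf8a (-0.97) and sp8a (-0.47). It was positive for tbx1 (0.95), phc2a (0.78), dlx2a (0.58), thbs2b (1.89) and angpt4 (0.89). For nkx1.2la it was 2.89 (adjusted p = 0.0101), but the counts at 8 h were between 3 and 21, under the filter of the 8 h fit. The effect was called in opposite directions at the later and earlier time for fgf8a (-0.44 at 8 h, 0.55 at 4 h), tbx1 (0.32 at 8 h, -0.61 at 4 h) and thbs2b (0.74 at 8 h, -1.13 at 4 h).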

How the results depend on the processing

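Changing the scaling (DESeq2 size factors or upper quartile in edgeR), the filter on low counts (none, or at least 1 CPM in 4 libraries), the dispersion (robust) or the test (limma voom) kept the counts of calls within 1.5 times of 79 higher and 39 lower genes. DESeq2 called 137 and 78 genes, all 79 and 39 among them. One fit of the 1 h and 4 h libraries called 49 higher genes. An adjusted p under 0.01 left 37 and 16 genes, and one under 0.10 gave 61 lower genes. Leaving out 1 library at a time gave 38 to 94 higher and 18 to 37 lower genes, from fits with fewer samples. Same-numbered libraries deviated together with correlations of 0.224, 0.0787, 0.440 and 0.249. For TP-0903 replicates 1, 3 and 4 the DMSO library of the same number was the best match. TP-0903 replicate 2 correlated best with DMSO replicate 1 (0.356), and for this exception the numbers were not taken as pairs. The main test thus leaves out a structure that same-numbered libraries shared in part. With a replicate block, 145 higher and 78 lower genes were called, with 79 and 38 of the original calls among them. Of the 4 h calls, 0 were called at 1 h by edgeR and 9 by DESeq2, and the effect at 4 h minus 1 h passed for 0 by edgeR and 7 by DESeq2. None of the 87 named calls reversed in any alternative. Since the treatments did not overlap in any call, a reversal could hardly arise, and its absence is no test of robustness. Of the named calls limma voom lost 8, robust dispersion 6 and the 1 h and 4 h fit 30. Depth limits chiefly the genes near 1 CPM, which a library reads with under 11 counts.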

Other observations

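Genes outside the lists and outside the naming rule, picked after their values were seen, included several regulators of transcription. skib and skia encode co-repressors of SMAD proteins. skib was at 118, 105, 100.5 and 90.7 CPM in TP-0903-treated embryos, against 54.7, 60.1, 52.8 and 51.8 CPM in DMSO-treated embryos (log2 fold change 0.91, SE 0.0953, adjusted p = 0.000875), and skia was at 141, 119, 138 and 116 CPM in TP-0903-treated embryos, against 70.8, 66.7, 78.4 and 84.2 CPM in DMSO-treated embryos (log2 fold change 0.77, SE 0.101, adjusted p = 0.00441). ncoa3, a coactivator of nuclear receptors, was at 342, 315, 307 and 282 CPM in TP-0903-treated embryos, against 193, 186, 194 and 190.4 CPM in DMSO-treated embryos (log2 fold change 0.71, SE 0.08102, adjusted p = 0.00166), with treated libraries above controls as in both Ski genes. znf503, a zinc-finger repressor, was at 195, 149, 151 and 125 CPM in TP-0903-treated embryos, against 82.5, 91.8, 79.5 and 84.5 CPM in DMSO-treated embryos (log2 fold change 0.87, SE 0.123, adjusted p = 0.00704), and TSHZ3 (1 of 2), a teashirt factor related to tshz1, at 84.5, 80.5, 66.9 and 51.1 CPM in TP-0903-treated embryos, against 27.99, 31.7, 34.1 and 38.95 CPM in DMSO-treated embryos (log2 fold change 1.08, SE 0.157, adjusted p = 0.00761). These 5 calls held in all 8 leave-one-out fits. tsc22d3, known in mammals as a gene induced by glucocorticoids, had a log2 fold change of 0.81 and dnmt3aa, a DNA methyltransferase, of 1.06, each held in 4 of 8 fits (adjusted p up to 0.09204 and 0.125).

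Enzymes, transporters and secreted factors picked in the same way were higher as well. cyp27c1, which in zebrafish converts vitamin A1 to A2 and was not on the retinoid list, was at 60.7, 56.8, 43.3 and 36.98 CPM in TP-0903-treated embryos, against 23.6, 25.2, 21.6 and 26.4 CPM in DMSO-treated embryos (log2 fold change 1.02, SE 0.152, adjusted p = 0.00851). abcb11a, of the bile salt export pumps, was at 226, 252, 165 and 134 CPM in TP-0903-treated embryos, against 117, 88.6, 82.5 and 90.5 CPM in DMSO-treated embryos (log2 fold change 1.04, SE 0.185, adjusted p = 0.0256; held in 4 of 8 fits, adjusted p up to 0.116). Both had their lowest treated value in TP-0903 replicate 4, still above every control. The glycine transporter slc6a9 (0.55, SE 0.0895, adjusted p = 0.0153) and the glutamate transporter slc1a3a (0.58, SE 0.0998, adjusted p = 0.0222) were each held in 4 of 8 fits (adjusted p up to 0.08195 and 0.113). HGF (2 of 2), named after the ligand of the receptor Met, averaged 6.57 ± 1.46 CPM in TP-0903-treated embryos and 2.69 ± 0.259 CPM in DMSO-treated embryos (SD, n = 4 each; log2 fold change 1.26, SE 0.205, adjusted p = 0.0153; held in 4 of 8 fits, adjusted p up to 0.0723). On the lower side RBM20, named after a splicing factor of titin, was at 21.3, 18.5, 20.6 and 17.9 CPM in TP-0903-treated embryos, against 29.6, 28.9, 26.2 and 26.1 CPM in DMSO-treated embryos (log2 fold change -0.504, SE 0.0979, adjusted p = 0.0398), and its call held in 0 of 8 leave-one-out fits (adjusted p up to 0.145).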
